A study of Mus musculus with 12 samples.

Results

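The genes of the D cyclins, of the kinases they activate, of the retinoblastoma protein and *E2f1* downstream of them, and of *Mycn* and *Myc* were described in murine ocular lesions, control eyes and cerebellar tumors. The 9 genes, *Ccnd1*, *Ccnd2*, *Ccnd3*, *Cdk4*, *Cdk6*, *Rb1*, *E2f1*, *Mycn* and *Myc*, were chosen by their symbols from the 770 genes of the nCounter Mouse PanCancer Pathways panel, and all 9 are on it. They were selected on results of these same samples, so their differences are given as a description without *p*-values. All 9 lay above the lowest value of the sample in each of the 12 samples.

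D cyclins bind CDK4 or CDK6, and these kinases phosphorylate the retinoblastoma protein, which then releases E2F factors that switch on genes for DNA replication. Growth signals reach this step largely through transcription of the D cyclin genes and of the Myc genes, since Myc proteins act as transcription factors for growth and cell cycle entry. Cyclin D1 is known as the main D cyclin of the embryonic retina, and *Ccnd2* and *Mycn* are known as genes switched on by Hedgehog signaling in cerebellar granule cell precursors, from which Shh-medulloblastomas (Shh-MBs) arise.

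Each sample was RNA of a single fresh frozen eye or cerebellar tumor from its own animal. The 5 *RBS* lesions were eyes of *Rax-creERT2::Ctnnb1(ex3)Fl/+SmoM2Fl/+* embryos at E18.5 after tamoxifen at E8.5. In these mice the *Rax* promoter drives a Cre that works only with tamoxifen, and Cre activates a floxed stabilizing allele of beta-catenin and a floxed constitutively active Smoothened. The 4 control eyes came from *Ctnnb1(ex3)Fl/+SmoM2Fl/+* embryos at E18.5, which carry both floxed alleles without Cre, and whether their mothers received tamoxifen is not in the sample labels. The 3 Shh-MBs came from *hGFAP-cre::SmoM2Fl/+* mice at 14 days of age, with Cre under a human *GFAP* promoter and no beta-catenin allele, and their labels name no tamoxifen. *RBS* lesions and Shh-MBs thus differ in organ, age, Cre driver, beta-catenin allele and labelled tamoxifen treatment at once, and these cannot be told apart here.

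Depth was 335392 to 716684 counts above background per sample. The lowest signal of any of the 9 genes, 95.6 for *E2f1* in RBS lesion 5, rests on 104.5 counts. The fewest counts were 91.1, for *E2f1* in RBS lesion 4 at a signal of 109.7. The labelled tissues can hardly be checked, because the panel holds 4 of 17 listed retina markers, 1 of 9 cerebellar granule cell markers and none of 9 lens markers. *Ctnnb1* was 7957 ± 395 (SD, *n* = 5) in *RBS* lesions, 5688 ± 171 (*n* = 4) in control eyes and 4863 ± 287 (*n* = 3) in Shh-MBs, and *Smo* was 177 ± 13.6, 157 ± 14.5 and 158 ± 24.1. How the probes of these genes relate to the altered alleles is not given in the sources used here. Control eye 4 held the highest or lowest value of its group for 8 of the 9 genes, against 3, 4 and 3 for control eyes 1 to 3. Over all 770 genes it did so for 437 (56.8%), not far from control eye 2 with 423 (54.9%). In a smaller group each sample is more often highest or lowest, so these shares are compared only within a group. Shh-MB 1 was highest or lowest for all 9 genes and for 593 of all genes (77.0%), beside 64.3% and 58.7% for Shh-MBs 2 and 3. RBS lesion 1, the sample of lowest depth, was so for 6 and 451 (58.6%), beside 30.8% to 39.6% for the other lesions. In control eye 4 the summed signal of 11 mesenchyme markers was 59479, against at most 43926 in the other control eyes. In whole pieces of tissue, fewer cells of a type and less RNA per cell cannot be told apart.

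Against control eyes, 3 of the 9 genes (*Ccnd1*, *E2f1* and *Mycn*) were lower in *RBS* lesions and 1 (*Rb1*) was higher at an adjusted *p* below 0.05 in limma's fit over all genes, while *Ccnd2*, *Ccnd3*, *Cdk4*, *Cdk6* and *Myc* were not past this threshold. Of all 770 genes, 18.2% were lower and 33.0% were higher. The same 4 genes had groups that do not overlap, as did 43.4% of all genes. Against Shh-MBs, 6 genes (*Ccnd2*, *Cdk4*, *Cdk6*, *E2f1*, *Mycn* and *Myc*) were lower in *RBS* lesions, 2 (*Ccnd3* and *Rb1*) were higher and *Ccnd1* was not past the threshold, beside 12.7% lower and 48.1% higher of all genes. Groups did not overlap for 8 of the 9 genes and for 59.9% of all genes. Nothing is read from these counts, since the genes were picked with both comparisons known, and both comparisons share the 5 *RBS* lesions.

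The sides of these comparisons depend on the scale of the samples. The median log2 difference of all genes was 0.17 against control eyes and 0.53 against Shh-MBs. Centring each sample on its median moved these medians, and every log2 difference with them, by -0.18 and -0.85. After that centring, 177 of the 354 genes called against control eyes had the higher signal in *RBS* lesions, in place of 254 of 394, and so had 181 of the 500 called against Shh-MBs, in place of 370 of 468. With quantile normalization the splits were 187 of 366 and 204 of 438, and with the total of all but the 3 most abundant genes as the scale 273 of 437 against Shh-MBs. Among the 9 genes the scale turned the direction of *Ccnd3* and *Myc* against control eyes and of *Rb1* against Shh-MBs, as given beside their values.

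**Figure D1:**
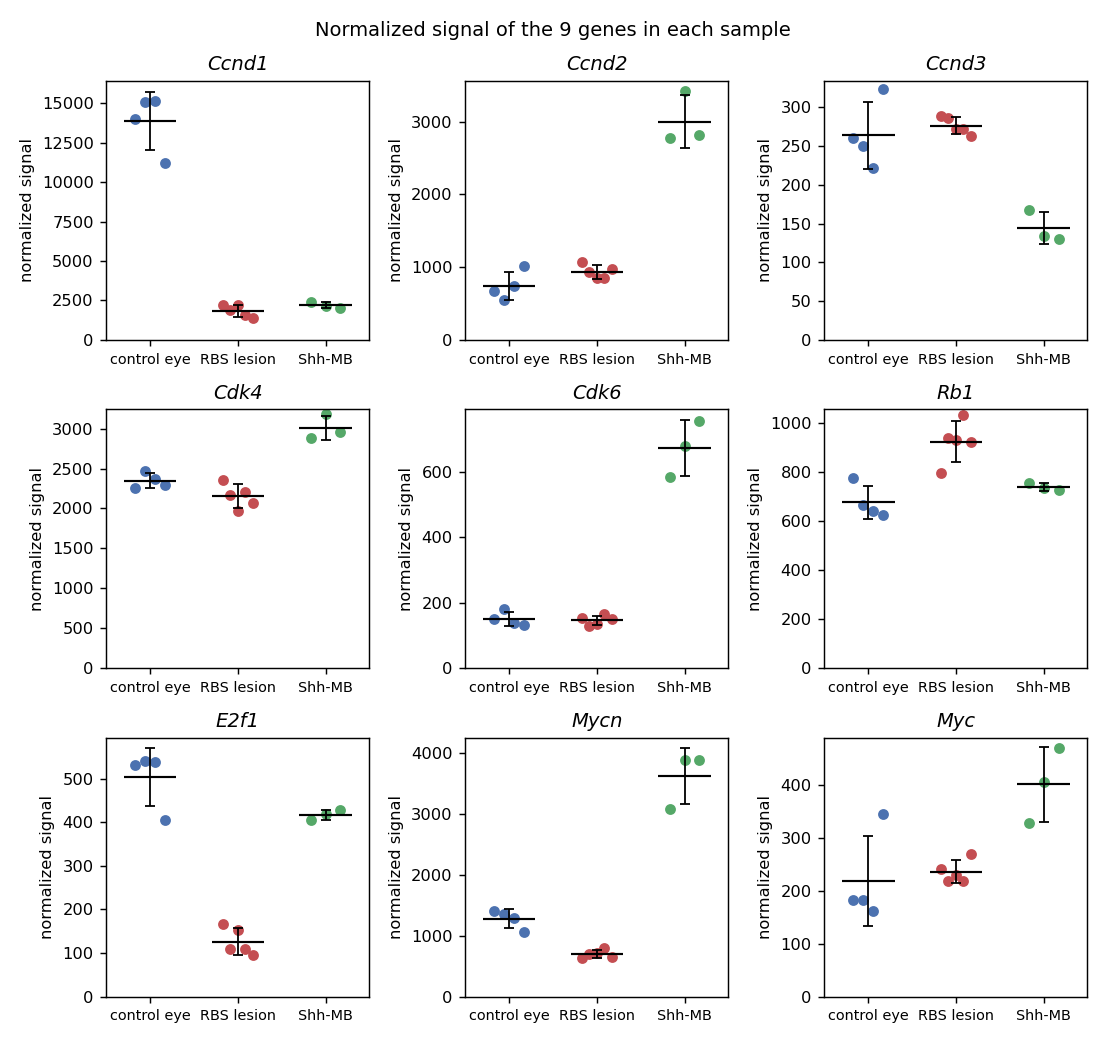
Normalized signal (linear scale from 0) of the 9 genes in each of 4 control eyes, 5 *RBS* lesions and 3 Shh-MBs, with points for samples, long bars for group means and error bars for the SD. *Ccnd1* stands at 11228 or more in the control eyes and at 2419 or less in all other samples, while *Ccnd2*, *Cdk6* and *Mycn* are highest in the 3 Shh-MBs.

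Among the cyclins, *Ccnd1*, which encodes cyclin D1, had a normalized signal of 14029.8, 15077, 15146 and 11228 in control eyes 1 to 4. It was 2206, 1877, 2236, 1555 and 1406 in *RBS* lesions 1 to 5, and 2419, 2162 and 2018 in Shh-MBs 1 to 3. All 4 control eyes lay far above both other groups, which overlapped. The mean of control eyes (13870.3 ± 1834, SD, *n* = 4) was 7.47 times that of *RBS* lesions (1856 ± 374, *n* = 5) and 6.31 times that of Shh-MBs (2199.7 ± 203, *n* = 3). On the log2 scale *RBS* lesions differed by -2.91 (SE 0.169) from control eyes and -0.27 (SE 0.181) from Shh-MBs. *Ccnd1* had the widest range of the 9 genes, 3.43 on the log2 scale over the 12 samples. The small difference from Shh-MBs was -1.11 with median centring and -0.64 with the scale that leaves out the 3 most abundant genes, and both passed the threshold. Over all alternatives this difference ran from -1.11 to -0.06, and from -0.34 to -0.17 with each sample left out.

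*Ccnd2*, which encodes cyclin D2, was 678, 548, 734 and 1012 in the control eyes. It was 1074, 940.0, 852, 845 and 975 in the *RBS* lesions and 2775, 3416 and 2812 in the Shh-MBs. The tumors lay above every eye, and control eye 4 reached into the range of the *RBS* lesions while the other 3 control eyes lay below it. The mean of Shh-MBs (3001 ± 360, *n* = 3) was 3.20 times that of *RBS* lesions (937 ± 94.8, *n* = 5) and 4.04 times that of control eyes (743 ± 196, *n* = 4). *RBS* lesions had a log2 difference of -1.68 (SE 0.125) from Shh-MBs and 0.36 (SE 0.170) from control eyes. Without control eye 4 the latter was 0.53 (SE 0.131) and passed the threshold.

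*Ccnd3*, which encodes cyclin D3, gave 261, 249.7, 221 and 324 in the control eyes. The *RBS* lesions gave 289, 286, 272, 272 and 263 and the Shh-MBs 168, 134 and 130.4. Here the tumors formed the low group, and the control eyes spread around the narrow range of the *RBS* lesions, whose SD was 10.9 against 43.4 in control eyes. The mean of *RBS* lesions (277, *n* = 5) was 1.92 times that of Shh-MBs (144 ± 20.8, *n* = 3) and 1.05 times that of control eyes (264, *n* = 4). From Shh-MBs the log2 difference of *RBS* lesions was 0.94 (SE 0.111), but it was 0.10 and no longer past the threshold with median centring. The log2 difference from control eyes was 0.08 (SE 0.113) and turned to -0.10 with median centring and -0.13 with quantile normalization.

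The balance of the D cyclins was taken as the share of each gene in the sum of the 3 signals of a sample, which does not change with the scale of the sample. Each gene has its own probe, so a share is compared between samples and not with the share of another gene. The share of *Ccnd1* was 93.7%, 94.98%, 94.1% and 89.4% in control eyes 1 to 4. In *RBS* lesions 1 to 5 it was 61.8%, 60.5%, 66.6%, 58.2% and 53.2%, and in the Shh-MBs 45.1%, 37.9% and 40.7%. The groups did not overlap in this share, with *RBS* lesions between control eyes and tumors. The means were 93.0% ± 2.503 (SD, *n* = 4), 60.04% ± 4.91 (*n* = 5) and 41.2% ± 3.66 (*n* = 3).

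The share of *Ccnd2* ran the other way, with 5.15% ± 2.01 in control eyes, 30.8% ± 4.13 in *RBS* lesions and 56.1% ± 4.06 in Shh-MBs. Its lowest and highest values were 3.45% and 8.06%, 25.4% and 36.9%, and 51.8% and 59.8%, again without overlap. The share of *Ccnd3* had a different order, with 1.82% ± 0.529 in control eyes, 2.71% ± 0.397 in Shh-MBs and 9.11% ± 0.991 in *RBS* lesions. Control eyes (1.37% to 2.58%) and Shh-MBs (2.35% to 3.14%) overlapped, and *RBS* lesions (8.09% to 10.2%) lay above both.

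These shares rest on sums of very different size. The 3 signals added up to 14877 ± 1617 in control eyes, 3069.9 ± 410.2 in *RBS* lesions and 5345 ± 377 in Shh-MBs. In *RBS* lesions the shares of *Ccnd2* and *Ccnd3* were higher than in control eyes, while their mean signals were 1.26 and 1.05 times those of control eyes and that of *Ccnd1* was 0.134 times. In Shh-MBs the *Ccnd1* signals overlapped those of *RBS* lesions, and the *Ccnd2* signals lay above both eye groups.

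**Figure D2:**
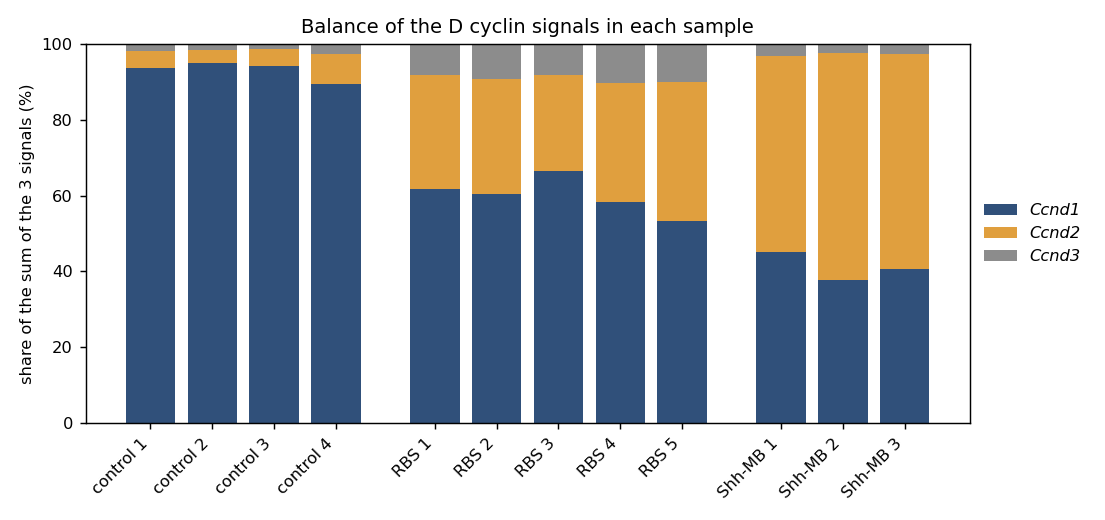
Share (%) of *Ccnd1*, *Ccnd2* and *Ccnd3* in the sum of their 3 normalized signals, with 1 bar per sample for 4 control eyes, 5 *RBS* lesions and 3 Shh-MBs. The *Ccnd1* segment reaches at least 89.4% in control eyes, 53.2% to 66.6% in *RBS* lesions and at most 45.1% in Shh-MBs, and control eye 4 has the lowest *Ccnd1* share of its group.

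Of the kinases, *Cdk4* was 2254, 2469.5, 2373 and 2296 in the control eyes. It was 2362, 2167, 1968, 2203 and 2064 in the *RBS* lesions and 2881, 3178 and 2962 in the Shh-MBs. *Cdk4* was the most even of the 9 genes, with a range of 0.69 on the log2 scale, and the eye groups overlapped below the tumors. Means were 2348 ± 94.7 (*n* = 4), 2153 ± 149 (*n* = 5) and 3007 ± 153 (*n* = 3), and the log2 difference of *RBS* lesions was -0.13 (SE 0.082) from control eyes and -0.48 (SE 0.098) from Shh-MBs. The difference from control eyes was -0.31 and past the threshold with median centring.

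*Cdk4* is a textbook target of Myc proteins, which bind the E-box CACGTG, so the 250 bases before its start are shown with the E-boxes in capitals. They are on the plus strand of GRCm38.p6, chr10:127063285-127063534, and were taken from RefSeq.
Cdk4: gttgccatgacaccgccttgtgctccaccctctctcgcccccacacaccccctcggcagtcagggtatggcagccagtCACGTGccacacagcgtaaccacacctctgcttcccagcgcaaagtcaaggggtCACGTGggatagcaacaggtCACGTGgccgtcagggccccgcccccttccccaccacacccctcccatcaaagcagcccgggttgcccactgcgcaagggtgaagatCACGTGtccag
The E-box reads the same on both strands. It begins 172, 118, 98 and 11 bases before the start of *Cdk4*, and 7 of 32851 mouse promoter stretches of this length in the same table (0.0213%) hold 4 or more, while 6.02% hold at least 1. *Cdk6* holds 1, beginning 220 bases before its start, and the stretches of *Ccnd3*, *E2f1* and *Mycn* hold none. These letters were chosen after the sequences had been seen, and a match is a description and not a measured binding site.

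*Cdk6*, the other kinase partner of D cyclins, had signals of 149.5, 182, 139 and 131 in the control eyes. The *RBS* lesions had 155, 129.6, 135, 165 and 149.6, and the Shh-MBs 585, 679.7 and 756. Every tumor stood above every eye, and the eye groups covered nearly the same range. The mean of Shh-MBs (673 ± 85.6, *n* = 3) was 4.58 times that of *RBS* lesions (147 ± 14.5, *n* = 5) and 4.47 times that of control eyes (151 ± 22.1, *n* = 4). For *RBS* lesions the log2 difference was -2.19 (SE 0.128) from Shh-MBs and -0.03 (SE 0.120) from control eyes. The latter was 0.01 without RBS lesion 2 and 0.06 without control eye 2, so it has no stable direction.

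*Rb1* encodes the retinoblastoma protein, the brake on E2F factors that the CDK4 and CDK6 kinases release. It was 776, 668, 643 and 626 in the control eyes. The *RBS* lesions had 798, 938, 934, 1035 and 923 and the Shh-MBs 758, 738 and 727. The *RBS* lesions lay above all other samples, with RBS lesion 1 at 798 next to control eye 1 at 776. The means were 678 ± 67.4 (*n* = 4), 926 ± 84.5 (*n* = 5) and 741 ± 16.0 (*n* = 3), and the ratio of *RBS* lesions was 1.36 to control eyes and 1.25 to Shh-MBs.

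The log2 difference of *Rb1* was 0.45 (SE 0.104) from control eyes. With median centring it was 0.27 and not past the threshold. From Shh-MBs the log2 difference was 0.32 (SE 0.106), below the median of all genes of 0.53. It turned to -0.53 with median centring, -0.10 with quantile normalization and -0.06 with the scale that leaves out the 3 most abundant genes. It also lost its call in 7 of the 8 fits with 1 sample left out, those without any 1 of the 3 Shh-MBs or of RBS lesions 2, 3, 4 and 5, at log2 differences of 0.27 to 0.33. Without RBS lesion 1 it was 0.37 and past the threshold.

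*E2f1* encodes a transcription factor that the retinoblastoma protein holds back and that switches on genes for DNA synthesis. It was 531, 541, 537 and 404 in the control eyes. The *RBS* lesions had 166, 109, 152, 109.7 and 95.6 and the Shh-MBs 404, 418 and 427. All 5 *RBS* lesions lay below all other samples, and the lowest control eye, number 4 at 404.2, lay next to the lowest tumor at 404.5. The mean of control eyes (503 ± 66.1, *n* = 4) was 3.97 times and that of Shh-MBs (417 ± 11.5, *n* = 3) was 3.29 times the mean of *RBS* lesions (127 ± 30.6, *n* = 5). The log2 difference of *RBS* lesions was -2.004 (SE 0.184) from control eyes and -1.74 (SE 0.194) from Shh-MBs, and it stayed at -1.56 or lower under every alternative run.

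*Mycn* encodes N-Myc, the Myc protein of many embryonal progenitors. It was 1414, 1353, 1300.5 and 1060.3 in the control eyes. The *RBS* lesions gave 632, 702, 713, 804 and 654 and the Shh-MBs 3087, 3879 and 3885. The 3 groups did not overlap, with tumors highest and *RBS* lesions lowest. The mean of Shh-MBs (3617 ± 459, *n* = 3) was 2.82 times that of control eyes (1282 ± 155, *n* = 4) and 5.16 times that of *RBS* lesions (701 ± 66.4, *n* = 5). On the log2 scale *RBS* lesions differed by -0.87 (SE 0.114) from control eyes and -2.36 (SE 0.126) from Shh-MBs.

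*Mycn* and *E2f1* were both lowest in *RBS* lesions but parted in Shh-MBs, with means 2.82 and 0.83 times those of control eyes. The 250 bases before the start of *Mycn* are shown because E2F, beta-catenin and Gli factors have known binding letters. They are on the minus strand of GRCm38.p6, chr12:12941837-12942086, taken from RefSeq, with TTTGGCGC (E2F) and the reverse strand of CTTTGA (TCF/LEF, the partners of beta-catenin) in capitals.
Mycn: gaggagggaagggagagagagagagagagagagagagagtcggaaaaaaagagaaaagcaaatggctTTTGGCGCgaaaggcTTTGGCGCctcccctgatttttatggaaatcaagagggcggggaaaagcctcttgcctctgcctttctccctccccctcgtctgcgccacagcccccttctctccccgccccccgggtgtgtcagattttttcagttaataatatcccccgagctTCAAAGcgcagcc
TTTGGCGC begins 183 and 168 bases before the start. At least 1 match on either strand is found in 0.417% of the 32851 promoter stretches. These letters are 1 version of a looser E2F motif and were chosen with the sequences in view, so their share is a description. CTTTGA is matched 13 bases before the start of *Mycn* and 51 bases before that of *Cdk4*, and 13.8% of all stretches hold it. GACCACCCA (Gli) has no match in the stretches of *Ccnd3*, *Cdk4*, *Cdk6*, *E2f1* and *Mycn* and is found in 0.225% of all. The searched motifs do not overlap in the 2 stretches shown.

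*Myc* encodes c-Myc, a known target of both Wnt signaling and E2F factors. It was 184, 183, 162 and 345 in the control eyes. The *RBS* lesions gave 242, 218, 229.6, 219 and 270.3 and the Shh-MBs 328, 406 and 469. Control eyes 1 to 3 lay below all *RBS* lesions and control eye 4 lay above all of them, among the tumors. The means were 218 ± 85.0 (*n* = 4), 236 ± 21.5 (*n* = 5) and 401 ± 70.4 (*n* = 3). The log2 difference of *RBS* lesions from Shh-MBs was -0.75 (SE 0.140).

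The log2 difference of *Myc* from control eyes was 0.18 (SE 0.210), near the median of all genes. Median centring gave -0.0045 and quantile normalization -0.038. Without control eye 4 it was 0.42 (SE 0.105) and passed the threshold, as did *Ccnd2*, and the calls of *Ccnd1*, *Rb1*, *E2f1* and *Mycn* remained. Without that eye 392 of the 770 genes were called, 366 of them also called with it. Control eye 4 was also the control eye with the highest mesenchyme and immune sums (397 against at most 369 for the latter) and the lowest retina and neuron sums (2966 and 1384). Its granule cell marker was at 15.7, against at most 1.17 in the other control eyes. The part of these in its *Ccnd2* and *Myc* signals was not tested.

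**Figure D3:**
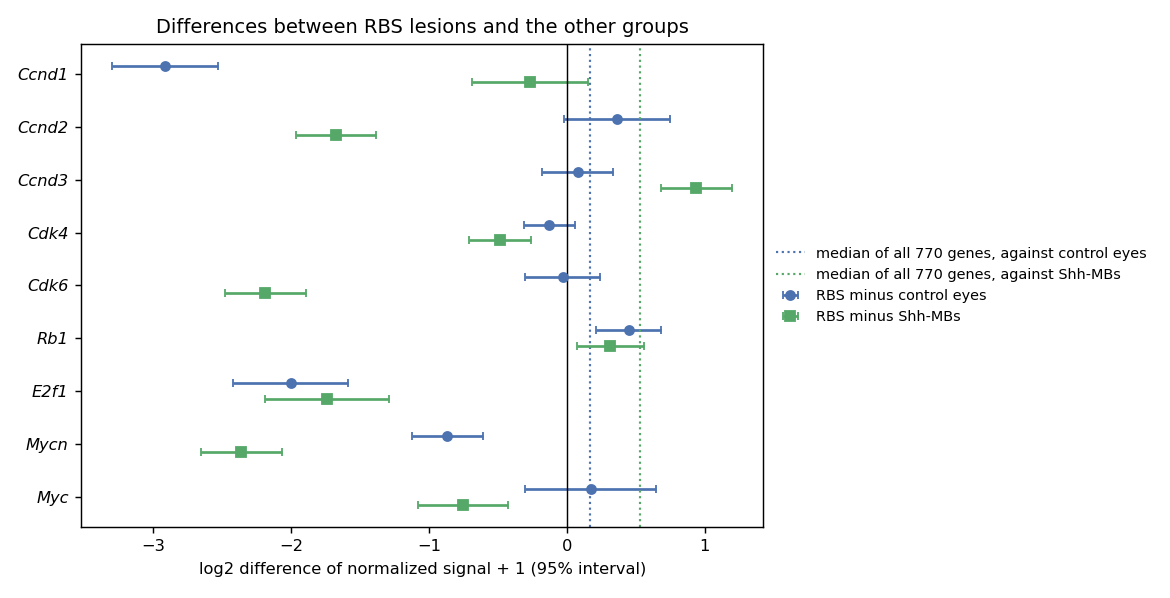
Log2 difference of normalized signal plus 1 for each gene, *RBS* lesions minus control eyes (circles) and minus Shh-MBs (squares), with 95% intervals from limma, and dotted lines at the median of all genes (0.17 and 0.53). *Ccnd1* is far below 0 against control eyes only, *Cdk6* and *Ccnd2* against Shh-MBs only, and *E2f1* and *Mycn* against both.

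Ratios of 2 genes within a sample do not depend on its scale, and only their differences between samples are read, since each gene has its own probe. The log2 ratio of *Ccnd2* to *Ccnd1* was -4.25 ± 0.55 (SD, *n* = 4) in control eyes, -0.97 ± 0.31 (*n* = 5) in *RBS* lesions and 0.45 ± 0.23 (*n* = 3) in Shh-MBs, without overlap. *RBS* lesions were 3.28 above control eyes and 1.41 below Shh-MBs on this log2 scale. The highest control eye was number 4 at -3.47.

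The log2 ratio of *Mycn* to *Myc* was 2.95, 2.89, 3.01 and 1.62 in the control eyes. It was 1.39, 1.69, 1.64, 1.87 and 1.28 in the *RBS* lesions and 3.23, 3.26 and 3.05 in the Shh-MBs. The *RBS* lesions lay below the tumors and below 3 of the 4 control eyes, and control eye 4 fell among the *RBS* lesions.

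The log2 ratio of *Cdk6* to *Cdk4* was -3.97 ± 0.17 in control eyes and -3.88 ± 0.13 in *RBS* lesions, which overlapped, and -2.17 ± 0.17 in Shh-MBs. The log2 ratio of *E2f1* to *Rb1* was -0.44 ± 0.18 in control eyes, -2.90 ± 0.44 in *RBS* lesions and -0.83 ± 0.07 in Shh-MBs. The *RBS* lesions had the widest spread of this ratio, from -3.27 in lesion 5 to -2.26 in lesion 1, and no lesion reached the other groups. The log2 ratio of *Cdk4* to *Ccnd1* was -2.55 ± 0.18 in control eyes, 0.24 ± 0.30 in *RBS* lesions and 0.45 ± 0.17 in Shh-MBs, so that the groups other than control eyes overlapped.

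**Figure D4:**
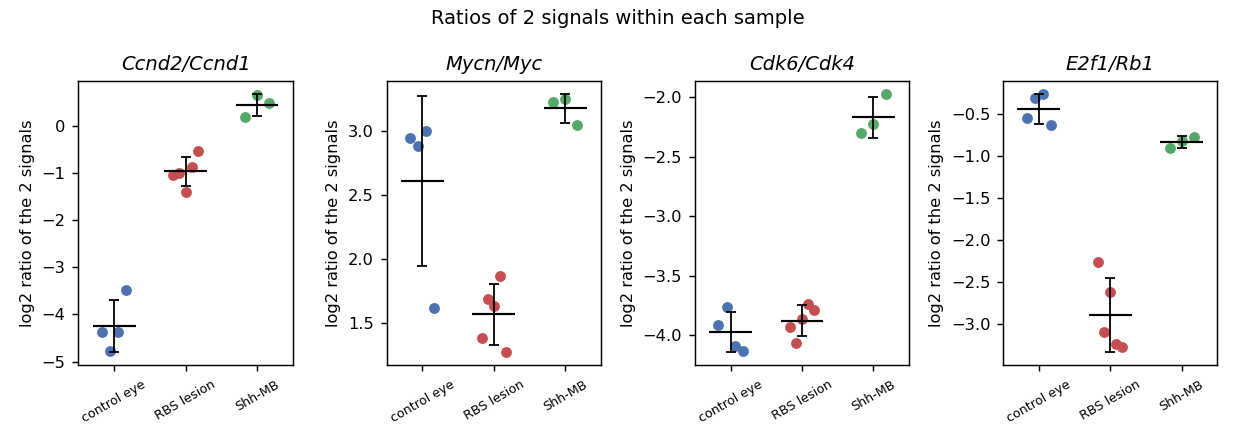
Log2 ratio of 2 normalized signals within each sample for 4 gene pairs, with points for samples, long bars for group means and error bars for the SD. *Ccnd2/Ccnd1* steps up from control eyes to *RBS* lesions to Shh-MBs, *E2f1/Rb1* is low in *RBS* lesions alone, *Cdk6/Cdk4* is high in Shh-MBs alone, and control eye 4 sits among the *RBS* lesions for *Mycn/Myc*.

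Across the 12 samples the patterns of the 9 genes fell apart. Likeness was taken as the root mean square difference of log2 signals, each gene centred on its own mean, and smaller values mean a closer pattern only where genes vary by more than this. *Cdk4* and *Rb1* varied too little to be placed, with an SD of log2 signals of 0.21 and 0.24. The farthest pair was *Ccnd2* and *Ccnd1* (1.91). *Cdk6* was at 0.386 from *Ccnd2* and at 0.393 from *Mycn*, where the SDs of the 3 genes were 1.00, 0.88 and 0.99. These values describe 12 samples in 3 groups and are set mostly by the group means.

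Of the other genes on the panel, *Myb* (0.418), *Gadd45a* (0.529) and *Gdf6* (0.681) had patterns nearest to *Ccnd1*, where the median of all other genes was 1.49. *Myb*, a transcription factor gene of proliferating progenitors, was 899 ± 124 in control eyes, 132 ± 45.2 in *RBS* lesions and 79.5 ± 6.12 in Shh-MBs. Nearest to *Ccnd2* were the calcium channel subunit gene *Cacna2d1* (0.223), *Pdgfra* (0.327) and *Zic2* (0.344), beside a median of 1.09. Nearest to *Mycn* were the Wnt antagonist gene *Sfrp1* (0.267), *Socs3* (0.307) and *Dusp5* (0.322), beside a median of 1.24. With Pearson's *r* as the measure, 2, 1 and 2 of the 3 names were kept for *Ccnd1*, *Ccnd2* and *Mycn*.

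Genes that act around the 9 genes were taken from lists drawn up by function, of which the panel holds 16 of 27 replication genes, 9 of 19 Rb-E2F and G1/S genes, 7 of 20 G2/M genes, 3 of 15 Myc network genes and all 7 CDK inhibitors. The lists were chosen with earlier results of these data known, so their counts are a description. For these genes the adjusted *p*-values of limma over all 770 genes are given with that limit. Their rises and falls are differences on the log2 scale of the signal plus 1, and values with ± are mean signals with the SD over 5 *RBS* lesions, 4 control eyes or 3 Shh-MBs. Of 16 genes of DNA replication and S phase that E2F factors are known to control, 14 fell in *RBS* lesions compared to control eyes and 14 compared to Shh-MBs, and none rose. Of all genes 18.2% and 12.7% were lower. The median log2 difference of the 16 was -1.10 and -1.29, beside 0.17 and 0.53 for all genes. *Cdc6*, which loads the replicative helicase, fell by 1.94 against control eyes (11.6 ± 5.76 against 42.8 ± 5.91, adjusted *p* = 0.0022 in limma). All 5 *RBS* lesions were under 20 for *Cdc6*, and with values under 20 set to 20 its difference was -1.09, still past the threshold. *Brca1*, known for its part in DNA repair, fell by 1.43 (109 ± 18.6 against 295 ± 40.8, adjusted *p* = 7.0e-05).

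Against Shh-MBs *Mcm5*, a subunit of that helicase, fell by 1.69 (adjusted *p* = 0.00099 in limma). *Rfc4*, of the clamp loader, fell by 1.65 (adjusted *p* = 1.2e-05), and *Pcna*, the sliding clamp, fell by 1.45 (2024 ± 228 against 5525 ± 373, adjusted *p* = 2.4e-05). *Cdc7* and *Rfc3* passed the threshold in neither comparison, and their groups overlapped in both.

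Of 9 other genes of the Rb-E2F family and of the G1/S cyclins and kinases, 5 fell and 1 rose in *RBS* lesions in each comparison, beside 18.2% lower and 33.0% higher of all genes against control eyes and 12.7% and 48.1% against Shh-MBs. *Ccna2*, the cyclin A2 of S phase, fell by 1.35 against control eyes (733 ± 97.6 against 1863 ± 194, adjusted *p* = 3.6e-05 in limma) and by 1.57 against Shh-MBs (2169.7 ± 155, adjusted *p* = 2.9e-05). *Ccne2*, the cyclin E2 of the G1/S step, fell by 0.90 (adjusted *p* = 0.00052) and 1.34 (adjusted *p* = 0.00015). *Cdk2*, the kinase of both, fell by 0.65 against control eyes (adjusted *p* = 0.0030), and *Ccna1* fell by 1.48 against Shh-MBs (7.49 ± 2.57 against 22.9 ± 8.003, adjusted *p* = 0.0018), at very low signals. The *Ccna1* difference was -0.25 and not past the threshold with values under 20 set to 20.

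*E2f5*, which encodes a repressive E2F, was the gene that rose. Its log2 difference was 0.37 against control eyes (adjusted *p* = 0.0035 in limma) and 0.67 against Shh-MBs (adjusted *p* = 0.00024). Against control eyes it was not past the threshold with median centring or quantile normalization (0.19 and 0.17). Against Shh-MBs it was 0.08 and not past it with quantile normalization, and it turned to -0.18 with median centring.

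All 7 listed CDK inhibitor genes are on the panel, and 1 rose and 2 fell against control eyes, beside 33.0% higher and 18.2% lower of all genes. *Cdkn2b*, which encodes the CDK4 and CDK6 inhibitor p15, had a log2 difference of 1.34 (26.4 ± 5.37 against 9.67 ± 1.40, adjusted *p* = 0.00017 in limma), at signals near the floor. With values under 20 set to 20 this difference was 0.39, still past the threshold (adjusted *p* = 0.045). *Cdkn2c*, which encodes the inhibitor p18 of the same kinases, fell by 1.11 (adjusted *p* = 0.00080) and *Cdkn2d* by 0.35 (adjusted *p* = 0.038). The last call was lost without any 1 of RBS lesions 2, 3 and 5 or control eyes 1, 2 and 3, at log2 differences of -0.28 to -0.36.

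Against Shh-MBs 2 CDK inhibitor genes rose and 2 fell, beside 48.1% and 12.7% of all genes. *Cdkn1c*, which encodes p57, was 2632 ± 237 in *RBS* lesions and 105 ± 16.3 in Shh-MBs, a log2 difference of 4.64 (adjusted *p* = 1.6e-07 in limma). *Cdkn2c* fell by 1.84 (adjusted *p* = 0.00010) and *Cdkn1b*, which encodes p27, by 0.62 (adjusted *p* = 0.0040). *Cdkn2b* had a log2 difference of 1.35 (adjusted *p* = 0.038) that turned to -0.09 with quantile normalization and was 0.29 and not past the threshold with values under 20 set to 20. It was 0.82 and not past the threshold without Shh-MB 3, and it also lost its call without Shh-MB 2 or without any 1 of RBS lesions 1, 3, 4 and 5, at 1.24 to 1.37.

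Of 7 genes of the G2 phase and mitosis, 4 fell and 1 rose against control eyes (18.2% and 33.0% of all genes), and 3 fell and none rose against Shh-MBs (12.7% and 48.1% of all genes). The number called against Shh-MBs, in either direction, was 7 with median centring, 6 with quantile normalization and 5 with the scale without the 3 most abundant genes. *Ttk*, a kinase of the spindle checkpoint, fell by 1.47 and 1.65 (adjusted *p* = 3.4e-05 and 4.0e-05 in limma). *Cdc25c*, the phosphatase that triggers mitosis, fell by 1.55 and 1.57 (adjusted *p* = 7.6e-05 and 0.00016), and *Wee1*, the kinase that opposes it, by 0.91 and 1.18 (adjusted *p* = 9.4e-05 and 5.9e-05). *Mad2l2*, known for its part in DNA repair as well, was 253 ± 41.1 in *RBS* lesions and 110.3 ± 15.5 in control eyes, a log2 difference of 1.19 (adjusted *p* = 0.00019).

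Of the Myc network and the ubiquitin ligase that degrades Myc and cyclin E, 3 genes are on the panel. Of these, 1 rose and 1 fell against control eyes, beside 33.0% higher and 18.2% lower of all genes, and 3 rose against Shh-MBs, beside 48.1% of all genes. *Fbxw7*, the part of the ligase that recognizes them, fell by 0.87 against control eyes (247 ± 15.7 against 453 ± 50.3, adjusted *p* = 0.00013 in limma). Against Shh-MBs it was higher by 0.74 (149.9 ± 32.6, adjusted *p* = 0.0023). *Skp1a*, an adaptor of the same ligase, was higher by 0.38 and 0.37 (adjusted *p* = 0.0035 and 0.012), where the former was 0.20 and not past the threshold with median centring, and *Cul1*, its scaffold, by 0.59 against Shh-MBs (adjusted *p* = 0.033). Against Shh-MBs these 3 differences were close to the median of all genes, and with median centring they were -0.11, -0.48 and -0.26. *Cul1* also lost its call without any 1 of Shh-MBs 1 and 2 and RBS lesions 2, 3 and 5, at 0.42 to 0.60.

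**Figure D5:**
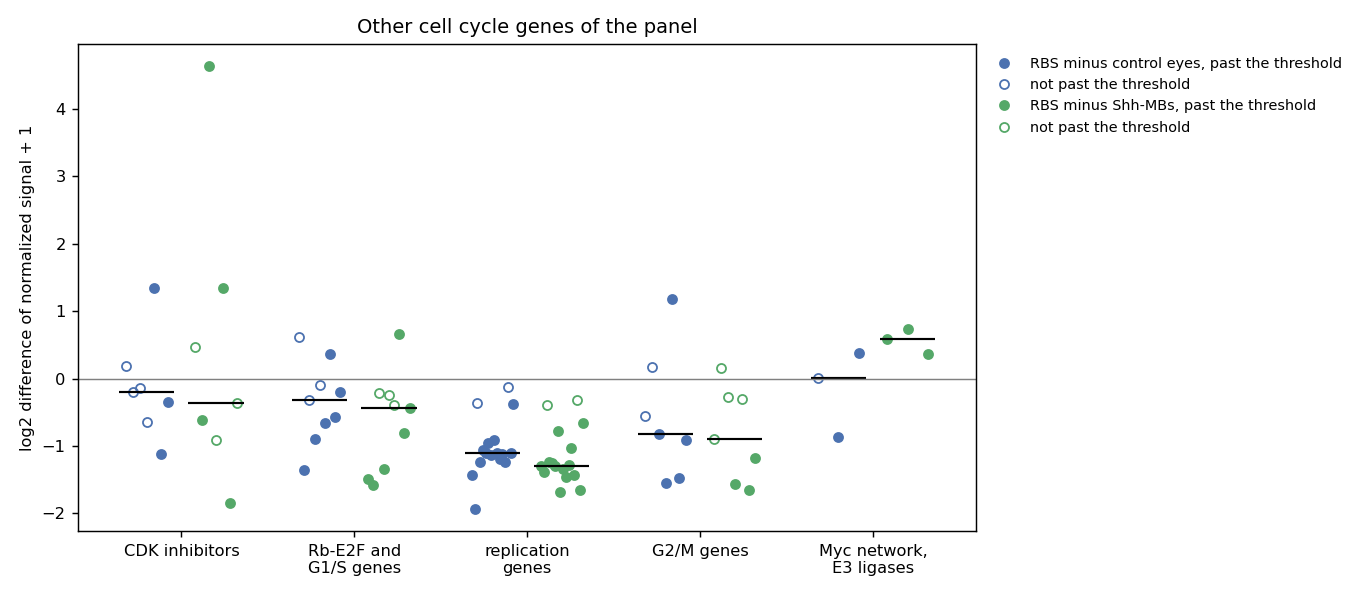
Log2 difference of normalized signal plus 1 for the other cell cycle genes of the panel in 5 lists, *RBS* lesions minus control eyes (left in each pair) and minus Shh-MBs (right), with filled points past an adjusted *p* of 0.05 in limma and bars at list medians. The 16 replication genes all lie below 0 in both comparisons, with medians of -1.10 and -1.29, and the highest point is *Cdkn1c* against Shh-MBs at 4.64.

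Markers of cell types moved with the groups. The summed signal of 11 neuron markers was 3868 to 5126 in *RBS* lesions, 1384 to 1563 in control eyes and 1453 to 2843 in Shh-MBs. The 4 retina markers summed to 1851 to 2475 in *RBS* lesions, 2966 to 3583 in control eyes and 2302 to 3572 in Shh-MBs. The 3 endothelium markers summed to 695 to 988, 1789 to 2259 and 129 to 235. The 11 mesenchyme markers summed to 20698 to 38168, 26335 to 59479 and 1568 to 2197, and the 17 blood and immune markers to 481 to 601, 337 to 397 and 294 to 489. The 1 listed granule cell marker on the panel, *Pax3*, was at 12.7 to 25.2, 1.01 to 15.7 and 4.29 to 31.6, near the floor. For *Pax3* the *RBS* lesions overlapped both other groups, so it does not mark the tumors here. The neuron sum was thus high and the retina and endothelium sums low in *RBS* lesions compared to control eyes. The endothelium sum was carried by *Kdr* (median 639 against 1849), while the medians of *Flt1* (59.5 against 44.9) and *Angpt2* (131 against 112) were slightly higher in *RBS* lesions with overlapping ranges. The retina sum was low through *Fgf15* (median 146 against 971) and *Fgf3* (2.46 against 117), while *Id2* overlapped. These differences stood beside the low *Ccnd1*, *E2f1* and *Mycn* signals. The part of these cell types in the signals of the 9 genes was not tested.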

How the data were processed

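RNA of 5 *RBS* lesions, 4 control eyes and 3 Shh-MBs was measured on the nCounter Mouse PanCancer Pathways panel. The authors normalized the counts with nSolver and nCounter Advanced Analysis. Their deposited values are linear normalized signals from which a background was subtracted, with a floor and 1 factor per sample. The background setting is not given in the sources used here, and whole counts could not be recovered, so no count model was used. Depth was estimated from the spacing of low values (335392 to 716684 counts).

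Log2 of the signal plus 1 was fitted with limma 3.58.1 in R 4.3.3 over all 770 genes, in 1 fit per comparison (two-sided, Benjamini-Hochberg, threshold 0.05). No filter was set on low values. Shh-MBs and control eyes are given side by side without a fit. Shares and ratios used the linear signal. Members, lists and the rule for named genes were chosen with earlier results of these data known. The rule takes the 9 genes, *Ctnnb1* and *Smo*, up to 3 largest rises and falls past the threshold in each list and comparison, and the 3 genes nearest to *Ccnd1*, *Ccnd2* and *Mycn*. Not every gene the rule takes is reported here. Each sample came from its own animal, so the spread is between animals. The steps were tested on simulated data. Alternatives were median centring, quantile normalization, a scale without the 3 most abundant genes, a pseudocount of 5, a floor of 20, leaving out genes with a mean under 20, limma with trend and robust settings, all 12 samples in 1 fit, the methods' test on log2 values without its permutations (Benjamini-Hochberg or step-down Bonferroni), a replicate block, and leaving out each sample. Promoter stretches came from RefSeq (GRCm38.p6), which listed those of *Ccnd3*, *Cdk4*, *Cdk6*, *E2f1* and *Mycn*. Figures used matplotlib 3.10.9 in Python 3.11.15.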

Additional observations from a re-analysis of the deposited data

Results flagged for a closer look

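The gap of the most distant value to its nearest neighbour, relative to the range of the group, was tested in 24 sets of values. These were 9 genes and 3 D cyclin shares in each of the 2 eye groups. The gap was past the limit in 2 of the 24 sets, both through control eye 4. Its *E2f1* signal was 404, with the others at 531 to 541. Its *Myc* signal was 345, with the others at 162 to 184. Chance alone gives about 1 such value in 20 groups. Over all 770 genes the same gap was found for 29 genes in control eye 4, for 15, 15 and 20 in control eyes 1 to 3, and for 30 in RBS lesion 1.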

How the results depend on the processing

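The 9 genes had 351 values under the alternatives in both comparisons, and 315 kept the direction and side of the threshold, 21 lost the call, 5 gained it and 10 changed sign. The changes of sign were those of *Ccnd3* against control eyes (-0.10 with median centring, -0.13 with quantile normalization, and -0.00041 to 0.18 with each sample left out), of *Cdk6* against control eyes (-0.091 to 0.064 with each sample left out), of *Myc* against control eyes (-0.0045 and -0.038 with these 2 scales), and of *Rb1* against Shh-MBs (-0.53, -0.10 and, without the 3 most abundant genes in the scale, -0.059). Among other named genes against Shh-MBs, median centring gave -0.18 for *E2f5*, -0.11 for *Fbxw7*, -0.48 for *Skp1a* and -0.26 for *Cul1*, quantile normalization gave -0.091 for *Cdkn2b*, and the scale without the 3 most abundant genes gave -0.010 for *Skp1a*. The cause was not tested.

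The methods' test was run with *p*-values from the *t* distribution, without the permutations that the methods name. With it and step-down Bonferroni adjustment, 72 genes passed against control eyes and 80 against Shh-MBs, in place of 394 and 468, and 2 and 0 of the 9 genes, in place of 4 and 8 (*Ccnd1* and *E2f1* against control eyes). The same test with Benjamini-Hochberg adjustment passed 347 and 380 genes. Under the step-down adjustment the lists gave, against control eyes and Shh-MBs, 0 and 1 calls for CDK inhibitors, 1 and 1 for Rb-E2F and G1/S genes, 6 and 5 for replication genes, 3 against control eyes for G2/M genes, and 0 and 0 for the Myc network. Against Shh-MBs G2/M genes gave 7, 6 and 5 calls with median centring, quantile normalization and the scale without the 3 most abundant genes, in place of 3, and the Myc network 1, 1 and 0 in place of 3, and 1 with Benjamini-Hochberg adjustment of the methods' test. Against control eyes the Myc network gave 1 call with median centring and 1 with the replicate block. With each sample left out, 350 to 392 and 423 to 478 genes, and 4 to 6 and 7 to 8 of the 9 genes, were called.

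The replicate numbers do not pair the samples, since same-numbered samples did not deviate together, with correlations of -0.15 to 0.19 over genes. With the replicate block 301 and 407 genes were called, and 3 and 7 of the 9 genes. The D cyclin shares moved by less than the SD under each alternative, except that of *Ccnd3* in Shh-MBs, which was 3.37% with quantile normalization in place of 2.71%. Signals near the floor, such as those of *Cdkn2b* and *Ccna1*, rest on few counts.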
